A study of Mus musculus with 6 samples.

Results

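The genes described here are 9 Toll-like receptor genes, Tlr1, Tlr2, Tlr4, Tlr5, Tlr6, Tlr7, Tlr8, Tlr9 and Tlr13, together with Cd14, and they were taken by gene name from a table of 55357 genes. RNA-seq was performed on cortical astrocytes cultured from C57BL/6 mouse embryos dissected on embryonic day 18. In 3 cultures the cells had been transfected with a plasmid that expresses FLAG-tagged BRAF KE (BRAF K499E) from the CMV promoter, which is not restricted to a cell type, and were harvested 48 hours later (KE). The other 3 cultures were not transfected (NT), and their genotype is labelled naive. Cultures given an empty plasmid or BRAF WT were not analysed here, so transfection and BRAF KE cannot be told apart in any difference between KE and NT. The sources do not say whether cultures came from separate animals, and p-values therefore measure only the spread between these cultures.

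Toll-like receptors recognize molecules of microbes and of damaged cells. At the cell surface, TLR2 pairs with TLR1 or TLR6 to bind bacterial lipoproteins, TLR4 binds lipopolysaccharide together with MD-2 after CD14 has handed the lipid over, and TLR5 binds flagellin. In endosomes, TLR7, TLR8, TLR9 and the mouse receptor TLR13 sense nucleic acids. All of these signal through the adaptor MyD88, and in the brain microglia and macrophages are the cells best known for expressing them.

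The deposited values are gene counts that the authors divided by DESeq2 size factors, called normalized counts below. After adding 1 and taking the log2, they were compared between KE and NT with limma. An approximate depth of 24500000 to 34100000 reads per culture was derived from the value that 1 read took. Braf was 35020, 34930 and 40980 in KE and 925, 811 and 946 in NT, so each library matched its label, although the table does not separate plasmid transcripts from those of the mouse gene. The summed level of 14 astrocyte markers was 210600 to 217700 in KE and 156000 to 165700 in NT, and among them S100b was low, at 11.8 to 31.5, and Gjb6 was at or near 0. Of 22 markers of microglia and macrophages, Siglech was listed at 0 in all 6 cultures, and the summed level was 9569 to 12370 in KE and 64310 to 81130 in NT. In bulk RNA, fewer cells of a type and less RNA per cell cannot be told apart. Differentially expressed genes (DEGs, adjusted p-value under 0.05) made up 51.3% of the 15280 tested genes.

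The 10 genes showed distinct patterns. Cd14 and Tlr2 had nearly the same mean in KE and NT, Tlr4 was modestly lower in KE, and Tlr1, Tlr6, Tlr7, Tlr8, Tlr9 and Tlr13 were 6.46-fold to 19.1-fold lower in KE, as ratios of group means. Tlr5 was very low in both groups. In all, 7 of the 10 genes were downregulated in KE and 0 were upregulated by limma, where 26% of all tested genes were downregulated and 25.3% were upregulated. The median log2FC of the 10 genes was -2.89, against 0 for all tested genes. All 10 passed the filter of a mean of at least 10 normalized counts. The mean in the lower group was below 10 only for Tlr5, at 9.19 in NT.

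**Figure D1:**
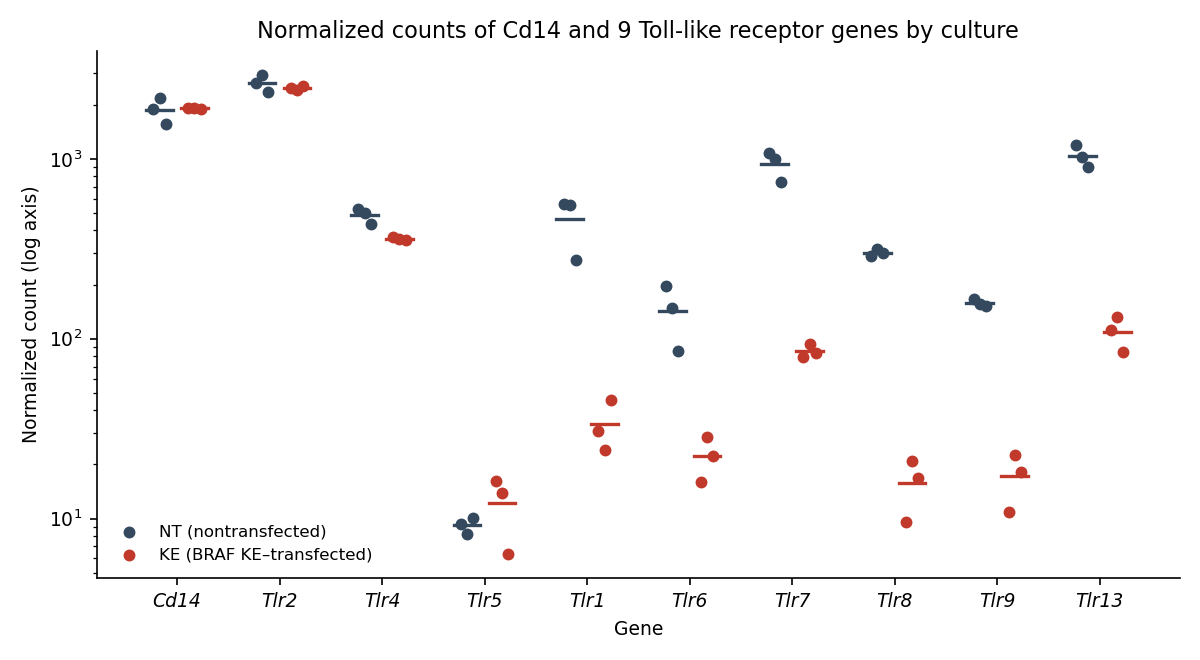
Normalized count of each gene in every culture on a log axis, with NT in dark blue, KE in red and the group mean as a bar. The KE and NT points lie at the same height for Cd14 and Tlr2 and far apart for Tlr1, Tlr6, Tlr7, Tlr8, Tlr9 and Tlr13, where every KE culture lies below every NT culture.

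Among the cell surface receptors, the level of Tlr2 (ENSMUSG00000027995, GRCm39 chromosome 3, 83743576 to 83749074, minus strand) hardly differed between groups. Its normalized counts were 2471, 2419 and 2548 in KE and 2632, 2934 and 2347 in NT. The KE values lay within the range of the NT values. The log2FC was -0.08 (95% confidence interval -0.26 to 0.09, limma adjusted p = 0.397). Among 12071 genes with a mean of at least 100, those whose centred log2 profile over the 6 cultures lay closest to that of Tlr2 were Lpin2, Vps33b and Ahnak2, at Euclidean distances of 0.08, 0.09 and 0.10.

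Cd14 (ENSMUSG00000051439, GRCm39 chromosome 18, 36858120 to 36859851, minus strand) encodes the lipopolysaccharide coreceptor. It was 1907, 1917 and 1898 in KE and 1892, 2179 and 1564 in NT. The 3 KE cultures were almost equal and lay inside the wider NT range, with an SD of 9.26 in KE and 308 in NT. The log2FC was 0.04 (95% confidence interval -0.19 to 0.26, adjusted p = 0.792 from limma).

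Tlr4 (ENSMUSG00000039005, GRCm39 chromosome 4, 66745783 to 66849936, plus strand) was downregulated by a smaller amount than the other 6 downregulated members. The normalized counts were 367, 356 and 355 in KE and 527, 498 and 434 in NT, so that every KE culture was below every NT culture. Exons of Tlr4 overlap those of Gm69151 on the other strand, and whether strand was used in counting is not given in the sources used here. The log2FC was -0.43 ± 0.10 (standard error), with a limma adjusted p of 0.00373. In this way 7 of the 10 members did not overlap between groups, all with KE lower. Over all tested genes 59.9% did not overlap, 29.9% with KE lower and 30.1% with KE higher. Relative to Cd14, there were 18.6 to 19.2 normalized counts of Tlr4 per 100 of Cd14 in KE and 22.8 to 27.9 in NT. In an exact two-sided permutation test over 3 against 3 cultures the p was 0.1, the smallest this design allows, and 0.138 after adjustment over the 11 ratios tested. Cd14 had nearly the same mean in both groups, so this ratio largely repeats the difference of Tlr4.

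Tlr5 (ENSMUSG00000079164, GRCm39 chromosome 1, 182782311 to 182805500, plus strand) was 16.2, 13.9 and 6.36 in KE and 9.28, 8.24 and 10.1 in NT. The groups overlapped, and KE contained both the highest and the lowest value. The log2FC was 0.28, with a wide confidence interval of -0.66 to 1.22 (adjusted p = 0.609 from limma).

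Both genes that encode partners of TLR2 were downregulated in KE. Tlr1 (ENSMUSG00000044827, GRCm39 chromosome 5, 65082022 to 65090941, minus strand) was 30.5, 24.1 and 45.4 in KE and 559, 551 and 272 in NT. The lowest NT culture, replicate 3, was still far above the highest KE culture. The log2FC was -3.72 ± 0.29 (standard error; limma adjusted p = 1.71e-06).

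Tlr6 (ENSMUSG00000051498, GRCm39 chromosome 5, 65108704 to 65203497, minus strand) is the gene next to Tlr1, and 17762 bases separate them. It was 15.9, 28.3 and 22.3 in KE and 197, 148 and 85.7 in NT, again lowest in NT replicate 3. The log2FC was -2.59 ± 0.31 (standard error; limma adjusted p = 4.56e-05). The transcripts of Tlr1 share 17.8% of their 31-base stretches with those of Tlr6, so the division of reads between the pair is uncertain. Their sum does not depend on that division and was 46.4, 52.4 and 67.7 in KE and 756, 699 and 358 in NT, a ratio of means of 10.9 in favour of NT. There were 0.996 to 1.78 normalized counts of Tlr1 per 100 of Tlr2 in KE and 11.6 to 21.3 in NT. For Tlr6 the corresponding values were 0.644 to 1.17 in KE and 3.65 to 7.48 in NT. Neither ratio overlapped between groups, and both gave the smallest p the exact permutation test allows, 0.1 (0.138 adjusted). Because Tlr2 hardly differed between groups, these ratios repeat the differences of Tlr1 and Tlr6 and add no separate evidence.

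All 4 of the endosomal receptor genes among the members were downregulated in KE, where 26% of all tested genes were downregulated. Tlr7 (ENSMUSG00000044583, GRCm39 chromosome X, 166086758 to 166113605, minus strand), which encodes a sensor of single-stranded RNA, was 79.2, 93.7 and 83.0 in KE and 1075, 993 and 744 in NT. The log2FC was -3.43 ± 0.14 (standard error; limma adjusted p = 2.15e-08). Tlr8 (ENSMUSG00000040522, GRCm39 chromosome X, 166024184 to 166047325, minus strand), a receptor for RNA breakdown products, lies on the same chromosome near Tlr7. It was 9.57, 20.8 and 16.8 in KE and 289, 315 and 298 in NT. Its log2FC of -4.23 ± 0.25 (standard error; limma adjusted p = 2.1e-07) was the most negative of the 10 members, and 0.17% of all tested genes had a lower one.

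Tlr13 (ENSMUSG00000033777, GRCm39 chromosome X, 105186810 to 105204533, plus strand) recognizes bacterial ribosomal RNA. It was 111, 133 and 84.2 in KE and 1188, 1019 and 903 in NT (log2FC -3.25 ± 0.16, limma adjusted p = 6.11e-08). Tlr9 (ENSMUSG00000045322, GRCm39 chromosome 9, 106099797 to 106104082, plus strand), the receptor for unmethylated CpG DNA, was 10.8, 22.5 and 18.1 in KE and 166, 156 and 152 in NT (log2FC -3.19 ± 0.26, limma adjusted p = 2.16e-06). In each of these 4 genes every KE culture was below every NT culture, as was the case for 29.9% of all tested genes. There were 12.1 to 22.2 normalized counts of Tlr8 per 100 of Tlr7 in KE and 26.9 to 40.1 in NT, without overlap and with the smallest exact permutation p the design allows, 0.1 (0.138 adjusted). For Tlr13 per 100 of Tlr7 the groups overlapped, at 102 to 141 in KE and 103 to 121 in NT (exact permutation p = 0.4). The same was true of Tlr9 per 100 of Tlr7, at 13.7 to 24 in KE and 15.5 to 20.4 in NT (exact permutation p = 0.6).

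Levels of different genes were compared per kilobase of merged exon in the Gencode vM39 annotation. In NT, Cd14 had the highest mean at 1080 ± 178 (SD, n = 3) normalized counts per kilobase, followed by Tlr2 at 480 ± 53.4 and Tlr13 at 219 ± 30.3. Next came Tlr7 at 177 ± 32.5 and Tlr1 at 136 ± 48.3, and cultures overlapped between Tlr13 and Tlr7 and between Tlr7 and Tlr1. The lower levels were those of Tlr4 (69.3 ± 6.82), Tlr8 (59.0 ± 2.53), Tlr9 (45.4 ± 2.15), Tlr6 (29.5 ± 11.5) and Tlr5 (1.37 ± 0.136), without overlap between neighbours in this order.

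In KE, Cd14 (1100 ± 5.34 per kilobase) and Tlr2 (451 ± 11.8) kept the first places, and Tlr4 (51.3 ± 0.924) moved from the sixth place to the third. Tlr13 followed at 23.1 ± 5.11, Tlr7 at 16.1 ± 1.42 and Tlr1 at 9.86 ± 3.24. The remaining genes Tlr9, Tlr6, Tlr8 and Tlr5 lay between 1.81 and 4.93 per kilobase, each overlapping its neighbour. Of the summed level of the 9 receptors per kilobase, Tlr2 made up 39.6% ± 2.93 (SD, n = 3) in NT and 79.7% ± 1.25 in KE. The share of Tlr4 was 5.73% ± 0.317 in NT and 9.06% ± 0.272 in KE, and that of Tlr7 was 14.5% ± 0.852 in NT and 2.85% ± 0.263 in KE. With the length of the canonical transcript instead, chosen after seeing the data, the share of Tlr2 was 51.5% in NT and 84% in KE, and the order was less distinct. Cd14 and Tlr2, Tlr1 and Tlr4, and Tlr9 and Tlr6 then overlapped in NT as well. In KE, Tlr13 and Tlr7 overlapped and Tlr8 took the last place from Tlr5, with overlap between them.

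**Figure D2:**
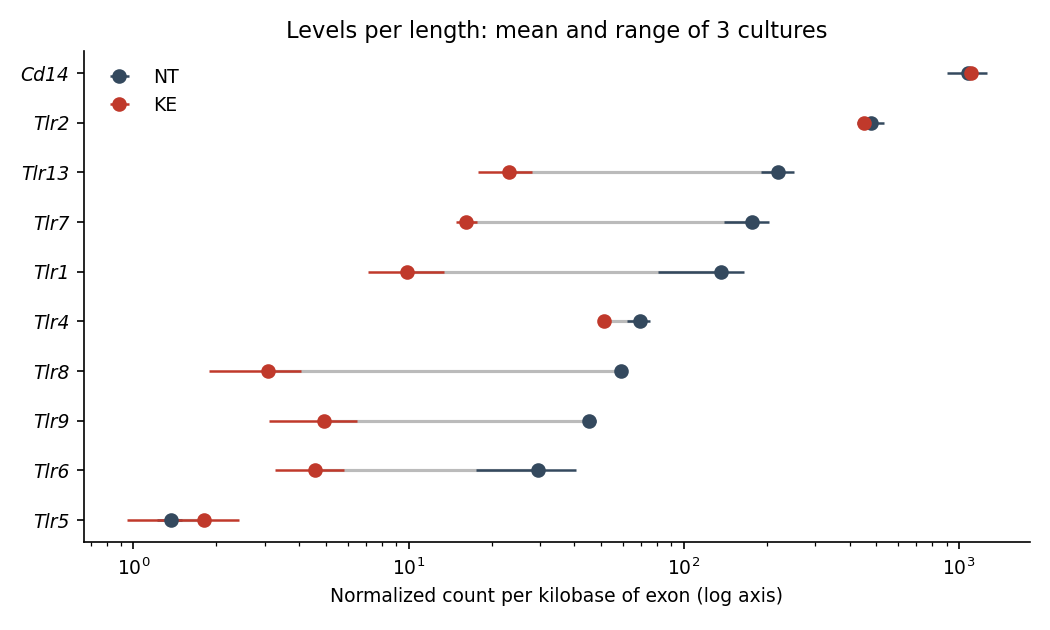
Normalized count per kilobase of merged exon on a log axis for each gene, ordered by the NT mean. Points are means of 3 cultures in NT (dark blue) and KE (red), and horizontal bars span the lowest to the highest culture. The points of Cd14 and Tlr2 coincide, and those of Tlr8 are the farthest apart.

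Since markers of microglia and macrophages differed between the groups, their values are given beside those of the receptors. Of the 22 markers, 21 were tested, 20 were downregulated and none was upregulated, with a median log2FC of -3.33 and a range of -4.12 for Fcrls to 0.03 for Sall1. Csf1r, the receptor on which microglia depend for survival, was 278, 277 and 274 in KE and 2751, 3737 and 2751 in NT. Of the 6 markers of border macrophages, 4 were tested and 3 were downregulated, with a median log2FC of -3.78, and their summed level was 226 to 279 in KE and 2339 to 2721 in NT. Neutrophil markers were almost absent, with Mpo, Elane, Ly6g and S100a9 listed at 0 in every culture and a summed level of 3.6 to 21.1. For astrocyte markers the median log2FC was 0.38, with 8 upregulated and 2 downregulated among 13 tested. Among endothelial markers 2 of 3 tested were downregulated (median log2FC -0.62), and among markers of the oligodendrocyte lineage 6 of 7 (median log2FC -0.55). Over all tested genes 26% were downregulated and 25.3% upregulated. Markers of fibroblasts and mural cells were mixed, with 3 upregulated and 3 downregulated of 8, as were those of neurons, with 1 upregulated and 2 downregulated of 5 tested. Of the B cell and plasmacytoid dendritic cell markers only Tcf4 was tested, and it was not called. The part of these cell types in the receptor differences was not tested.

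To measure how far each gene moved compared with the microglia and macrophage markers, the mean log2 of the 21 tested markers in each culture was subtracted from every gene and limma was fitted again. This mean was 7.81 to 8.35 in KE and 10.87 to 11.18 in NT. On this scale 97.6% of all tested genes were called higher in KE and 0.628% lower. Cd14, Tlr2, Tlr4 and Tlr5 were among those higher, by 3.09, 2.97, 2.62 and 3.33 on the log2 scale, each with every KE culture above every NT culture, as was the case for 97.5% of all tested genes. Tlr6, Tlr7, Tlr9 and Tlr13 differed from the markers by 0.46, -0.37, -0.13 and -0.19, with adjusted p of 0.151, 0.118, 0.683 and 0.411 from limma. Tlr8 and Tlr1 were lower than the markers, by -1.18 (adjusted p = 9.16e-05 from limma) and -0.67 (adjusted p = 0.0127). The markers themselves spread around their mean, and 6 of the 21 were also called lower than it, Fcrls by -1.07 and Itgam by -1.01 being the lowest. Tlr1 therefore lay inside the range of these markers, and Tlr8 lay just beyond Fcrls. Of the border macrophage markers, Mrc1 (-1.60) and Pf4 (-1.38) were lower than Tlr8 on this scale.

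All genes share the error of the marker mean, which limma's moderation treats as independent between genes, so the same contrast was also computed with each gene's own variance, an alternative added after seeing the data. The 95% confidence interval was then -1.90 to -0.46 for Tlr8 (adjusted p = 0.011 in this gene-wise limma fit) and -2 to 0.66 for Tlr1 (adjusted p = 0.237), whose KE and NT cultures overlapped on this scale. For Tlr7 it was -0.73 to -0.02 (adjusted p = 0.0452), for Tlr13 -0.54 to 0.15, for Tlr9 -0.79 to 0.52 and for Tlr6 -0.39 to 1.31. The intervals of Cd14 (2.61 to 3.57), Tlr2 (2.44 to 3.50) and Tlr4 (2.13 to 3.12) lay above 0, and 97.1% of all tested genes were called higher and 0.491% lower in this fit. Expressed against a single marker, there were 28.5 to 33.8 normalized counts of Tlr7 per 100 of Csf1r in KE and 26.6 to 39.1 in NT, whereas for Tlr2 the values were 873 to 929 in KE and 78.5 to 95.6 in NT.

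**Figure D3:**
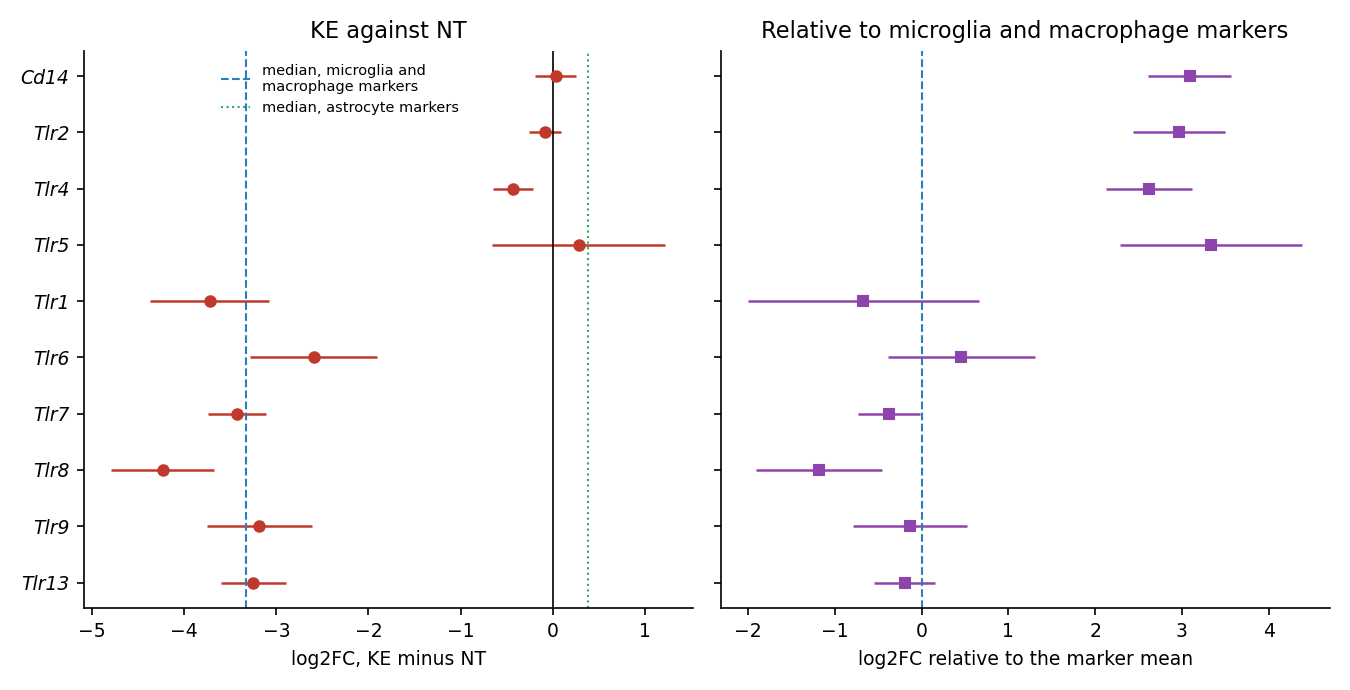
Left, log2FC of KE against NT for each gene with its 95% confidence interval from limma, with a solid line at 0 and dashed and dotted lines at the medians of microglia and macrophage markers and of astrocyte markers. Right, the same contrast after subtraction of the marker mean, with 95% confidence intervals from each gene's own variance. Cd14, Tlr2, Tlr4 and Tlr5 lie to the right of the marker line in both panels, and Tlr1, Tlr7, Tlr8, Tlr9 and Tlr13 lie to its left in the right panel, with intervals that leave out 0 for Tlr7 and Tlr8.

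The start regions of receptor genes were looked at after 6 of these genes were found lower in KE while Tlr2 was not. Whether these regions have a part in that difference was not tested. RefSeq windows (GRCm38.p6) of the 250 bases before the transcription start existed for 7 of the 10 members, and Tlr4, Tlr7 and Cd14 had none in the table used. All 9 windows of these 7 genes matched GRCm39 exactly once near their gene. They were searched on both strands for GAGGAA, the core of sites bound by PU.1, a transcription factor of myeloid cells, a motif chosen after the values were known. The letters were present in 4 of the 9 windows, 1 each of Tlr1, Tlr8, Tlr9 and Tlr13, and absent from the second window of Tlr1 and from those of Tlr2, Tlr5 and Tlr6. Of 32851 windows of this length over all genes, 23.3% held them. As the motif was chosen with the values known, the matches describe these windows and are not evidence about PU.1. The match of Tlr1 lies within the transcript as Gencode annotates it and is not shown. In Tlr6, a stretch from 116 to 101 bases before the start held 2 overlapping matches to an interferon-stimulated response element (GAAA, 2 bases of any kind, then GAAA), found in 2.98% of all windows. This RefSeq window lies inside the Tlr6 gene as Gencode annotates it and not before its first base. Tlr9 also held TGANTCA, an AP-1 motif, found in 6.75%. A narrow form of the NF-kB motif (GGGA, 2 bases of any kind, then TTCC), found in 1.21%, was searched too and had no match in the 9 windows. Wider forms of this motif were not searched, and the Tlr2 stretch printed below holds such a form, gggaattccc, near its end. How many of all windows hold a wider form was not counted. In the member windows no match overlapped one of a different motif. A match is a run of letters and not shown to be bound. The stretches below end where the Gencode gene begins, run 5′ to 3′ on the strand of the gene, and have GAGGAA or its reverse complement in capitals.
Tlr8, chrX:166047326-166047575, minus strand: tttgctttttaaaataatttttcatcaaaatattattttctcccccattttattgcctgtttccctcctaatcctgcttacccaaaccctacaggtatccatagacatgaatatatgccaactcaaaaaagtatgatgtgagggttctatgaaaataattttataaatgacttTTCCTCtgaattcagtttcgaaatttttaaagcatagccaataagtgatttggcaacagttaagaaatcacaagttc
Tlr9, chr9:106099547-106099796, plus strand: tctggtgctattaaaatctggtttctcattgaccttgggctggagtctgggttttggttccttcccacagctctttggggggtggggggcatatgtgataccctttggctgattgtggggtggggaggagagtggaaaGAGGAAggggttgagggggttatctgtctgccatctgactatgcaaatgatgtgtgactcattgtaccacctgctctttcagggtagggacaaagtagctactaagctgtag
Tlr13, chrX:105186631-105186809, plus strand: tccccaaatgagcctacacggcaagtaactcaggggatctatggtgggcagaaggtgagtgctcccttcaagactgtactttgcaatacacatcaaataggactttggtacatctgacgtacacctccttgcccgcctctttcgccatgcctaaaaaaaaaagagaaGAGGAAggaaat
Tlr2, chr3:83749075-83749165, minus strand: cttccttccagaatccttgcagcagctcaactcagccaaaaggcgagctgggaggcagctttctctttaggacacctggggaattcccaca

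Other genes of the Toll-like receptor pathway were compared from 6 lists of 48 genes, of which 45 were tested, 11 were upregulated and 11 were downregulated. These shares are close to those over all tested genes, of which 25.3% were upregulated and 26% downregulated, so the counts set the pathway apart in neither direction. The median log2FC was -0.01. Among the Toll-like receptors outside the 10 members, Tlr3, the receptor for double-stranded RNA, rose in KE. It was 7209, 6229 and 7445 in KE and 2168, 2120 and 1933 in NT (log2FC 1.74, adjusted p = 2.54e-08 from limma). Per kilobase of merged exon its mean was 1300 in KE, above every other Toll-like receptor measured, and 388 in NT, below Tlr2. Tlr11 and Tlr12 were listed at 0 in all KE cultures and at no more than 3.11 in NT, and were not tested.

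Of the 9 genes of accessory and trafficking proteins, 5 were downregulated and 2 upregulated. The partners of a member on the lipopolysaccharide side did not move as one. Ly96, which encodes MD-2, was 136, 116 and 115 in KE and 120, 116 and 86.2 in NT (log2FC 0.20, adjusted p = 0.353 from limma), with overlap between groups. Lbp, the serum protein that delivers lipopolysaccharide to CD14, was upregulated (log2FC 0.56, adjusted p = 0.000645). Cd180 and Ly86, the receptor and partner pair RP105 and MD-1, were downregulated with log2FC of -2.28 and -2.95, and Cd36, a lipid scavenger receptor that assists TLR2 and TLR6, had the lowest log2FC of the list, -3.25. Unc93b1, which carries the endosomal receptors to their compartment, was 1434, 1360 and 1316 in KE and 2335, 2793 and 2009 in NT (log2FC -0.78, adjusted p = 8.48e-05 from limma). The chaperone gene Hsp90b1 had a log2FC of -0.20 and its cochaperone Cnpy3 one of 0.10, and the latter was not called. Slc15a4, an endolysosomal transporter used by TLR7 and TLR9 signaling, was upregulated with a log2FC of 0.37.

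Among 6 adaptor genes, Myd88 rose from a mean of 1005 ± 60.2 to 1733 ± 55.5 (SD, n = 3), a log2FC of 0.79 (adjusted p = 3.84e-06 from limma). Tirap, the bridging adaptor for TLR2 and TLR4, fell with a log2FC of -0.48. Ticam2 (TRAM), which links TLR4 to the adaptor TRIF, fell with a log2FC of -2.46, and Pik3ap1 (BCAP) fell with one of -2.88. Ticam1 (TRIF) had a log2FC of 0.23 with an adjusted p of 0.0462 from limma, a call that was lost in 7 of its 14 alternatives. Of 17 genes of kinases and ubiquitin ligases, 15 were not called. Ikbkg (NEMO) rose with a log2FC of 0.38, and Peli1 was called lower with one of -0.25 (adjusted p = 0.0429), a call lost in 7 of its 14 alternatives. Ikbke had the lowest log2FC of this list, -0.35 (adjusted p = 0.0603 from limma).

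Of 8 inhibitors of the pathway, 7 were tested. Trafd1, Socs1 and Tnfaip3 (A20) rose with log2FC of 1.36, 1.31 and 1.13, and Irak3 (IRAK-M), an inhibitor found mainly in monocytes and macrophages, fell with one of -1.90. Among 5 transcription factors, Irf7 rose from 1661, 2123 and 1215 in NT to 21710, 24490 and 22210 in KE (log2FC 3.81, adjusted p = 1.75e-08 from limma), and Irf5 fell with a log2FC of -2.42. Rela was called higher with a log2FC of 0.26 (adjusted p = 0.042), and this call was lost in 6 of its 14 alternatives. Nfkb1 and Irf3 were not called.

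**Figure D4:**
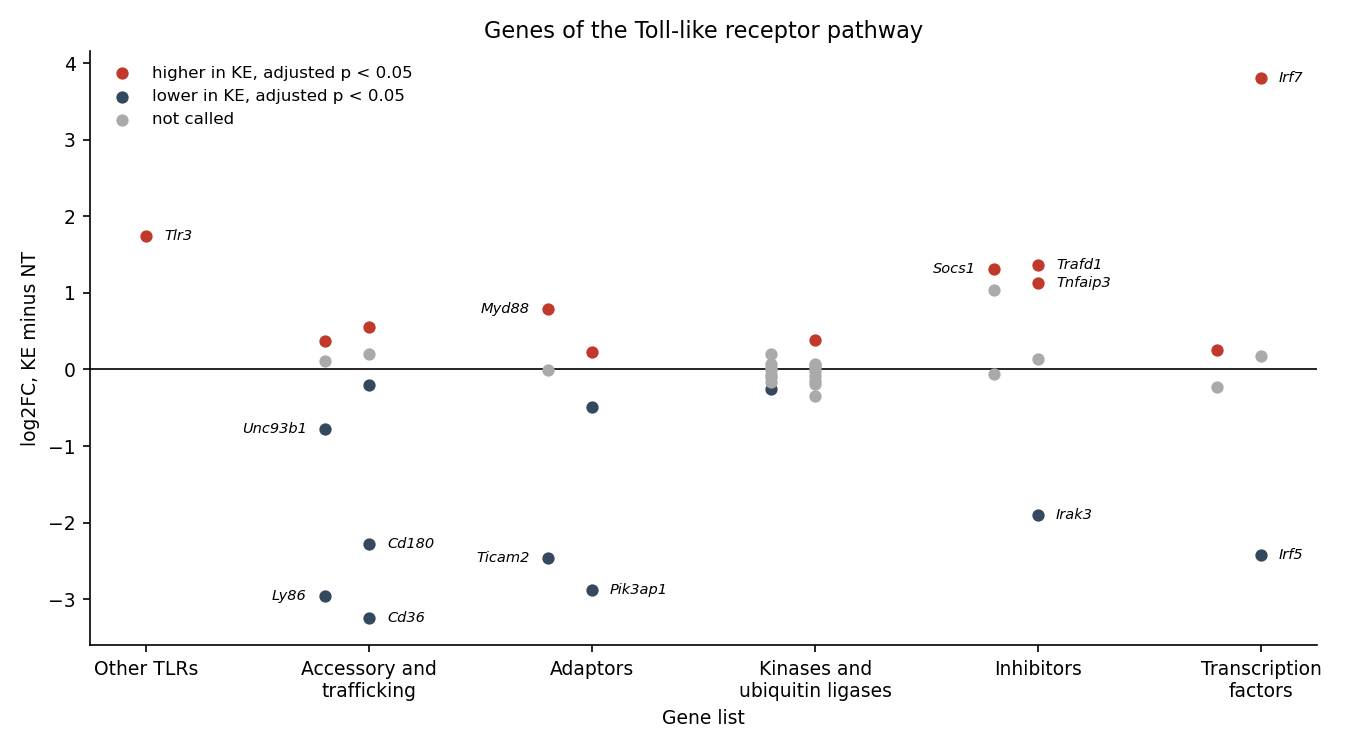
log2FC of KE against NT for the tested genes of 6 pathway lists, 1 point a gene, in red where higher and dark blue where lower in KE at an adjusted p under 0.05 and in grey where not called. Names are given for called genes beyond 0.7 in either direction. The kinases and ubiquitin ligases cluster near 0, while Irf7 lies at 3.81 and Cd36 at -3.25.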

How the data were processed

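The mRNA of 3 KE and 3 NT cultures was sequenced from stranded libraries. The supplemental methods describe trimming (TrimGalore), STAR alignment to GRCm39 with Gencode models, and Salmon quantification. That paragraph describes the other samples of the study and mentions astrocytes for their log2FC cutoff, and the submitters' processing notes name GRCh38, which mouse gene identifiers contradict. The authors deposited a signal per gene and culture, estimated counts divided by DESeq2 size factors, which evens out totals and assumes that most genes do not change. Only 77.2% to 80.5% of low values lay within 0.1 of whole reads, so no count test was run.

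Genes averaging 10 or more were kept, and log2(value + 1) was modelled by group in limma (version 3.58.1, R 4.3.3) with a variance trend. Two-sided p-values received Benjamini-Hochberg adjustment across the 15280 genes. The added 1 shrinks the log2FC of low genes. The members and lists were chosen with earlier results of these data known. All members and Braf were named, and of the pathway lists mainly the genes with the 2 largest rises and falls and the direct partners of members. The likeness rule was applied to the highest receptor among the members. Positions and lengths came from Gencode vM39, where 54749 of 55357 identifiers were found. The fit was tested on simulated data. Alternatives were other pseudocounts, filters and normalizations, no trend, a replicate block, another marker list and leaving out each culture.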

Additional observations from a re-analysis of the deposited data

How the results depend on the processing

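For KE against NT, all 138 comparisons of a member with an alternative kept their direction where called and their side of the threshold, and the counts stayed at 7 lower and 0 higher. Leaving out each culture in turn gave a log2FC of -4.46 to -3.93 for Tlr8. Tlr5 fell below the filter, and was not tested, with a mean of at least 50 or without KE replicate 1, where 3 members instead of 4 were higher than the markers. Relative to the microglia and macrophage markers, 149 of 158 comparisons were unchanged in call, and the exceptions concerned Tlr1, Tlr6, Tlr7 and Tlr13. Leaving out each culture gave -1.01 to -0.30 for Tlr1, with 1 to 2 members lower: Tlr1 lost its call without KE replicate 2, NT replicate 1 or NT replicate 2 (-0.30, -0.53 and -0.56), and also with each gene's own variance (-0.67), so its position against the markers is uncertain. Tlr7 was called with each gene's own variance (-0.37, added after seeing the data). With 6 markers in place of the list, 4 members were lower, Tlr7 (-0.78) and Tlr13 (-0.60) being added, where 1.26% of all tested genes were lower. With a pseudocount of 5, Tlr6 was called higher, at 0.62. The cause of these changes was not tested.

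With the replicate number as a block, 7 members were lower and 0 higher, and Tlr7 was called lower than the markers, at -0.37 (adjusted p = 0.045 from limma). Deviations of same-numbered KE and NT cultures had a correlation across genes of 0.059, 0.066 and 0.065, so the numbers were not taken as pairs; each was nevertheless the highest of its culture. Of the pathway genes, 592 comparisons were unchanged, 23 lost a call (Hsp90b1, Peli1, Rela and Ticam1) and 12 gained one. The approximate depth of KE replicate 2 was the lowest, and genes near 10 normalized counts are the least precise there.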
